A study of Homo sapiens with 31 samples.

Results

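The data described here ask whether Rita acts on the transcriptome of H460 cells differently when B87 and DMKG are also present. They come from 16 of the 31 libraries of the series, chosen by treatment label alone, as all replicates of 4 of its 8 groups. H460 is a human cell line established from a non-small cell carcinoma of the lung, and poly(A) RNA was sequenced 6 h after the additions. The B87+DMKG+Rita group (n = 4) received B87 at 1 µM, DMKG at 5 mM and Rita at 50 µM. The B87+DMKG group (n = 4) received the same B87 and DMKG without Rita, the Rita group (n = 4) received Rita at 50 µM alone, and Control cells (n = 4) were untreated. No vehicle group is labelled, and all groups share the same line and medium. Each sample joined 2 wells, and the labels do not say that replicates were separate experiments, so the p-values reflect a spread among samples that could be technical.

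B87 is BAY87-2243, an inhibitor of complex I of the respiratory chain, and DMKG is dimethyl α-ketoglutarate, an ester that enters cells and releases a tricarboxylic acid cycle intermediate. Rita is a small molecule reported to bind p53 and keep it from MDM2, the ubiquitin ligase that marks p53 for destruction. When p53 is released it switches on genes of cell cycle arrest, such as CDKN1A, and of death, such as BBC3 and PMAIP1, together with MDM2 itself as a feedback. A second programme that runs through the results is the integrated stress response, in which kinases that sense missing amino acids, misfolded proteins or mitochondrial faults slow translation, so that the transcription factor ATF4 is made and turns on genes of amino acid supply and, in the same set, of cell death. The title of the series sets MDM2 inhibitors against the transcriptional effects of DMKG plus B87, which is the question the 4 groups address.

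The interaction is the log2 effect of Rita in B87+DMKG cells minus the log2 effect of Rita in otherwise untreated cells. It is positive where Rita raised a gene more, or lowered it less, in the presence of B87+DMKG. The same number is the effect of B87+DMKG in Rita-treated cells minus its effect in cells without Rita. Values were taken as log2(normalized read count + 1) and averaged by group, which understates the change of low genes, and limma's standard error follows the sign ±. A gene passed the test at an adjusted p below 0.05 (limma, Benjamini-Hochberg over all 16259 rows tested). Levels are normalized read counts of single libraries in replicate order, or means ± SD, and all differences are relative to the other transcripts, as the labels name no spike-in. Levels are not divided by gene length, so they are compared between libraries and not between genes. Statements on the highest or lowest libraries cover these 4 groups. In bulk RNA, a change in every cell and a larger change in some of the cells cannot be told apart.

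The 16 libraries held 43.6 M to 82.5 M reads. The median SD of log2 values was 0.123 in B87+DMKG+Rita, 0.249 in B87+DMKG, 0.162 in Rita and 0.136 in Control libraries. Mitochondrially encoded rows took 2.47% to 3.33% in B87+DMKG+Rita, 2.24% to 7.51% in B87+DMKG, 2.69% to 4.76% in Rita and 1.49% to 2.15% of reads in Control libraries, and their part in the results was not tested. Rita replicate 4 and Control replicate 3 stood apart from their groups in several of the genes named here. Control replicate 3 was low in genes of the integrated stress response and high in HSPA1A and HSPA1B. Without these 2 libraries 6762 rows passed the test for the interaction. In the B87+DMKG group replicates 1 and 2 stood apart from replicates 3 and 4 in some of the named genes. Examples are CENPE (8338, 7753, 4805 and 4430 normalized read counts in replicate order) and BOP1 (5200, 5292, 8648 and 9980). The lowest correlation between libraries of that group was 0.964, below that of the other 3 groups, and its part in the results was not tested.

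The interaction passed the test for 7897 of 16259 rows (48.6%). It was positive in 3933 rows (24.2%) and negative in 3964 (24.4%). By at least 1 on the log2 scale it was positive in 1105 rows and negative in 2019. The effect of Rita passed in 10937 rows (67.3%) in B87+DMKG cells and in 8468 rows (52.1%) in otherwise untreated cells. Its SD over rows was 1.18 in B87+DMKG cells and 0.806 in otherwise untreated cells. Scaling every library to the same total shifted the median Rita effect by -0.24 in B87+DMKG cells and by -0.174 in otherwise untreated cells. Under that scaling 32.7% of the calls in B87+DMKG cells were rises, against 49.2% as deposited, and 30.9% of the calls in otherwise untreated cells, against 49.4% as deposited.

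The same interaction reads more simply from the side of B87+DMKG. In Rita-treated cells B87+DMKG changed 3812 rows (23.4%), and 312 of these by at least 1. In cells without Rita it changed 9922 rows (61.0%), and 3391 of these by at least 1. The test pools the spread over groups. With array weights, set per group, B87+DMKG changed 5963 rows in Rita-treated cells and 9275 in cells without Rita. The SD of the effect over rows was 0.438 in Rita-treated cells and 0.987 in cells without Rita. The 2 effects share no library, and across the 16259 rows their Pearson correlation was 0.045 and their Spearman correlation 0.096. Rows are not independent of each other, so these are descriptions.

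Rows that B87+DMKG moved strongly in cells without Rita were read again in Rita-treated cells, where 9.35% of all rows were higher and 14.1% lower. Of the 2073 rows raised by at least 1 in cells without Rita, 136 (6.56%) were higher in Rita-treated cells, 142 (6.85%) were lower and 1795 did not pass. Their median effect was -0.07 in Rita-treated cells and 1.65 in the comparison that chose them. Of the 1318 rows lowered by at least 1, 38 (2.88%) were higher in Rita-treated cells, 324 (24.6%) were lower and 956 did not pass, with medians of -0.19 and, in the comparison that chose them, -1.37. The medians in the choosing comparison are fixed by the choice and are no test. Under the same total for every library 20.2% of the calls in Rita-treated cells were rises, against 39.9% as deposited, so the split by direction in that comparison depends on scaling.

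**Figure D1:**
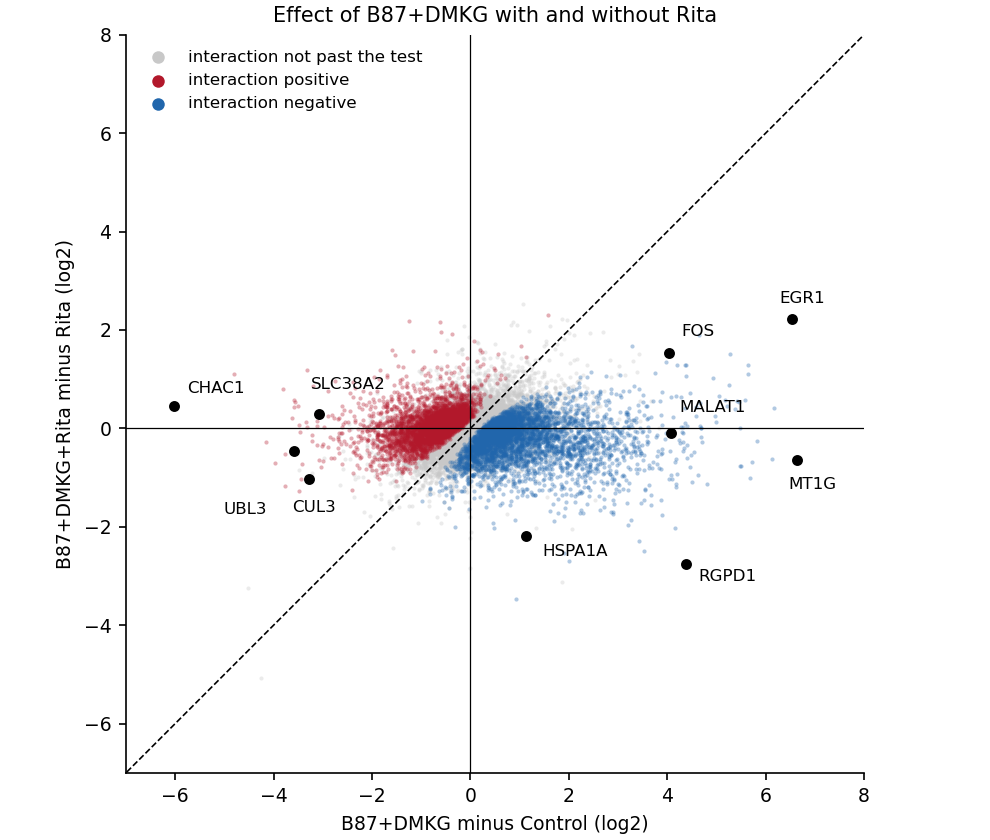
Each point is 1 of 16259 table rows, with its B87+DMKG effect in cells without Rita on the x axis and in Rita-treated cells on the y axis, both as log2 differences. The dashed line marks equal effects, and the cloud is wide along x (SD 0.987) and narrow along y (SD 0.438); 10 of the genes named in the text are labelled.

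The same was done for Rita, which raised 33.1% and lowered 34.2% of all rows in B87+DMKG cells. Of the 992 rows that Rita alone raised by at least 1, 514 (51.8%) were also higher when Rita was added to B87+DMKG cells, 145 (14.6%) were lower and 333 did not pass the test. Of the 1280 rows that Rita alone lowered by at least 1, 34 (2.66%) were higher in B87+DMKG cells, 1058 (82.7%) were lower and 188 did not pass. The Pearson correlation of both Rita effects, which share no library, was 0.48 across rows (Spearman 0.433).

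Genes of the integrated stress response had the highest median interaction of the 25 gene lists. Of the 25 members tested, 21 were positive (24.2% of all rows), 1 was negative (24.4% of all rows) and 3 did not pass the test, with a median of 1.13, against -0.01 over all rows. Without Rita replicate 4 and Control replicate 3 the counts were 22 and 1. Rita raised 23 of the 25 in B87+DMKG cells (33.1% of all rows) and 17 in otherwise untreated cells (25.8% of all rows), where it also lowered 3 (26.3% of all rows), with median effects of 1.68 and, in otherwise untreated cells, 0.54. In Rita-treated cells B87+DMKG raised 4 (9.35% of all rows) and lowered none of them (median 0.09), whereas in cells without Rita it raised 1 (30.2% of all rows) and lowered 22 (30.8% of all rows; median -1.27).

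CHAC1, an enzyme that breaks down glutathione and a marker of ATF4 activity (chromosome 15, 41245636 to 41248717, hg19), had the highest interaction of the genes that the naming rule allows. CHAC1 had 5719, 5804, 5674 and 5778 normalized read counts in B87+DMKG+Rita, 36.9, 69.3, 12.5 and 36.3 in B87+DMKG, 3938, 4091, 3990 and 4692 in Rita, and 3164, 3369, 710 and 3114 in Control libraries. The B87+DMKG libraries were the lowest and the B87+DMKG+Rita libraries the highest, with no overlap between any of the 4 groups. The interaction was 6.48 ± 0.50 (adjusted p = 3e-11), a ratio of Rita effects of 89.3, and stayed between 6.03 and 7.02 with each library left out. It was made of a Rita effect of 7.40 in B87+DMKG cells and 0.92 in otherwise untreated cells.

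The sequence around the CHAC1 start is shown because it carries a known ATF4-type element and CHAC1 leads the result. The letters searched were TGATGCAA, the core of the composite element read by ATF4 with C/EBP proteins, on both strands, with overlapping matches counted apart; each motif in this text was searched in 1 list and in all windows. Windows run from 250 bases before to 50 after a RefSeq start (GRCh38.p14). The CHAC1 window is chr15:40953221-40953520, plus strand, with the match in capitals.
CHAC1: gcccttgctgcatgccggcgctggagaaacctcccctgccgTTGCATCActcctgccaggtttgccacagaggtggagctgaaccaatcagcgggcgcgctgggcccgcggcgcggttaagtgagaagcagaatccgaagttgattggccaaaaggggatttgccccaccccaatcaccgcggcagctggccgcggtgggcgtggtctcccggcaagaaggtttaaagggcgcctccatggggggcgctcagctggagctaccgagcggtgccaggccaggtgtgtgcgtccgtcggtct
Of the 25 members, 21 had at least 1 window in the RefSeq table, 31 windows in all, and 2 windows held the letters, those of CHAC1 and of CEBPG, a C/EBP family partner of ATF4. Over all 35116 windows, 304 held them (0.866%). A match describes the letters and not a site in use.

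ATF4 itself (chromosome 22, 39916564 to 39918690) had a positive interaction. ATF4 had 80150, 77237, 79185 and 79411 normalized read counts in B87+DMKG+Rita, 28312, 29136, 30640 and 31477 in B87+DMKG, 68144, 70540, 68456 and 72495 in Rita, and 51776, 56855, 40947 and 50284 in Control libraries. The 4 groups did not overlap, and the interaction was 0.91 ± 0.10 (adjusted p = 2.8e-08). TRIB3, a pseudokinase that restrains ATF4 and AKT, had 7147, 7062, 7027 and 7021 in B87+DMKG+Rita, 729, 560, 910 and 963 in B87+DMKG, 4860, 5408, 4793 and 3587 in Rita, and 4050, 4381, 2453 and 4133 in Control libraries. Rita and Control libraries overlapped, and the Rita effect on TRIB3 was 3.19 in B87+DMKG cells and 0.33 in otherwise untreated cells, where it did not pass the test. The interaction of TRIB3 was 2.86 ± 0.24 (adjusted p = 1.2e-10).

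SLC38A2, a transporter that brings glutamine and other neutral amino acids into the cell, moved in opposite directions. SLC38A2 had 4748, 4185, 4963 and 3345 normalized read counts in B87+DMKG+Rita, 945, 743, 1116 and 1184 in B87+DMKG, 4623, 4281, 3608 and 2054 in Rita, and 9095, 7438, 6839 and 10049 in Control libraries. Rita raised it in B87+DMKG cells (2.12) and lowered it in otherwise untreated cells (-1.25), an interaction of 3.36 ± 0.28 (adjusted p = 1.4e-10). The B87+DMKG+Rita and Rita libraries overlapped, so that the level with Rita lay between B87+DMKG and Control.

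ADM2, a peptide hormone of the calcitonin family, averaged 1496 ± 219 normalized read counts in B87+DMKG+Rita, 71.7 ± 18.5 in B87+DMKG, 1628 ± 117 in Rita and 742 ± 332 in Control libraries (SD, n = 4 each). Its interaction was 3.09 ± 0.37, with Control replicate 3, at 249, far below the other Control libraries. SESN2, a sestrin that reports leucine to the growth regulator mTORC1 and answers both ATF4 and p53, had 3171, 3127, 3357 and 2988 in B87+DMKG+Rita, 170, 271, 234 and 259 in B87+DMKG, 2399, 2228, 2240 and 2049 in Rita, and 1245, 1261, 528 and 1429 in Control libraries, with an interaction of 2.68 ± 0.28. All B87+DMKG values were below those of the other groups.

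Other members followed with smaller values. ASNS, which makes asparagine, averaged 16414 ± 747 in B87+DMKG+Rita, 2252 ± 314 in B87+DMKG, 17498 ± 1827 in Rita and 6652 ± 1414 in Control libraries (SD, n = 4 each; interaction 1.46 ± 0.17). DDIT3, the pro-apoptotic factor CHOP, had 530, 491, 567 and 535 in B87+DMKG+Rita, 43.6, 46.7, 40.1 and 50.5 in B87+DMKG, 356, 381, 335 and 362 in Rita, and 113, 134, 34.6 and 108 in Control libraries. Rita raised DDIT3 in both settings, by 3.53 in B87+DMKG cells and 2.03 in otherwise untreated cells (interaction 1.5 ± 0.35, adjusted p = 0.00086). The negative member was PPP1R15A, which was named after its value was seen. It encodes GADD34, the phosphatase subunit that ends the response, and its interaction was -1.89 ± 0.23. ATF3, a factor downstream of ATF4, is likewise named after its values were seen. Rita raised ATF3 by 4.21 in B87+DMKG cells and by 4.23 in otherwise untreated cells, so that the interaction was -0.01 ± 0.35. Of the 12 aminoacyl-tRNA synthetases, which charge tRNAs with amino acids and include ATF4 targets, 8 were positive and none negative (24.2% and 24.4% of all rows; median 0.38). IARS had the highest value of these (0.75 ± 0.08), followed by GARS (0.55 ± 0.11), MARS (0.48 ± 0.12) and TARS (0.47 ± 0.09).

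**Figure D2:**
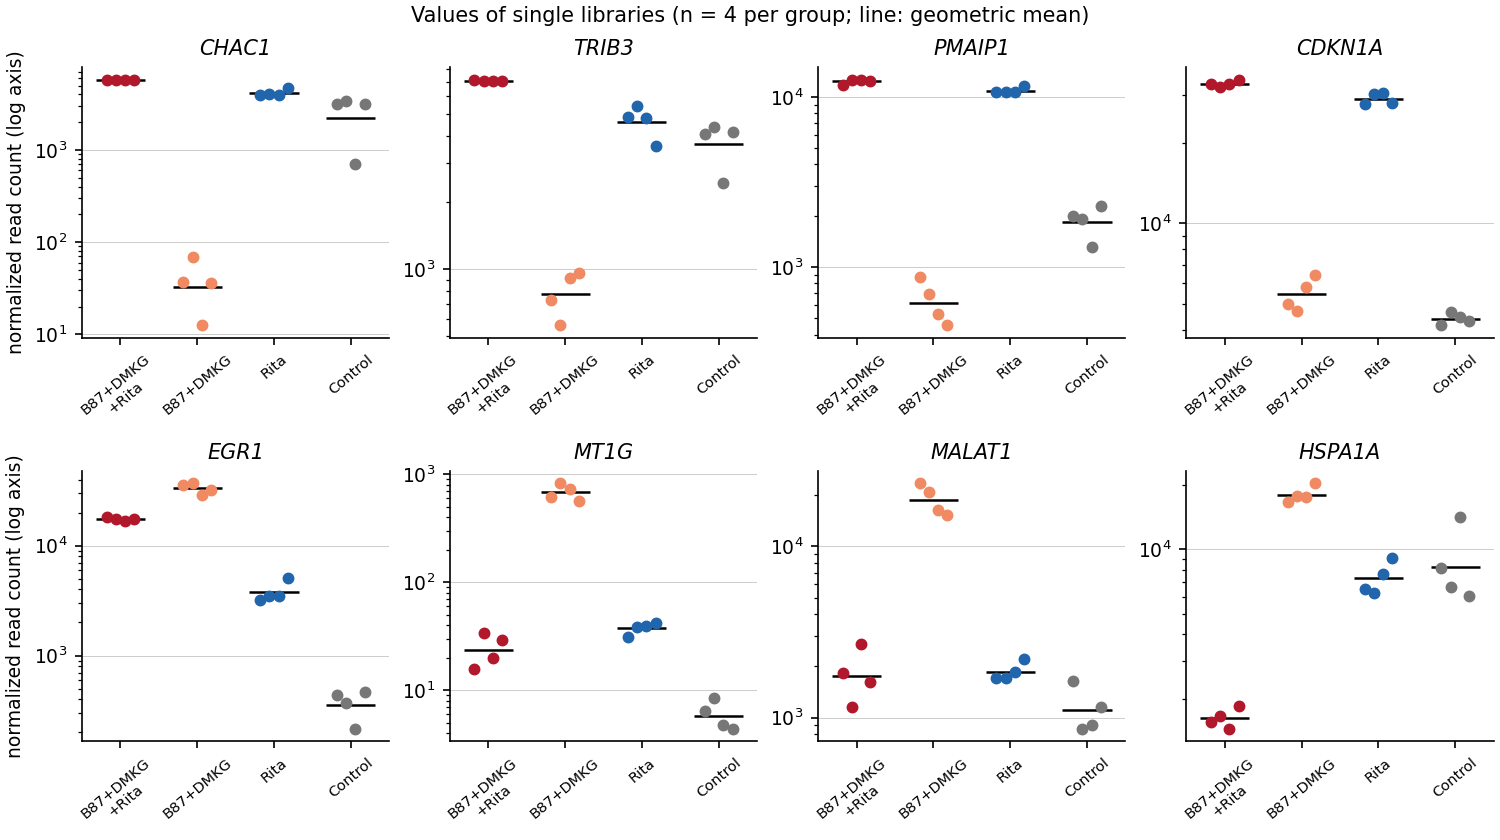
Normalized read counts of single libraries on a log axis for 8 genes, with B87+DMKG+Rita, B87+DMKG, Rita and Control from left to right and the geometric mean of 4 libraries as a line. CHAC1, TRIB3 and PMAIP1 are lowest in B87+DMKG libraries, EGR1, MT1G, MALAT1 and HSPA1A are highest there, and CDKN1A follows Rita with or without B87+DMKG.

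Targets of p53 divided. Of the 29 members tested, 12 were positive (24.2% of all rows), 6 negative (24.4% of all rows) and 11 did not pass the test, with a median of 0.16, against -0.01 over all rows. Without Rita replicate 4 and Control replicate 3 there were 12 and 4. Rita raised 23 members in B87+DMKG cells and lowered 2 (33.1% and 34.2% of all rows; median 1.24), and in otherwise untreated cells it raised 21 and lowered none (25.8% and 26.3% of all rows; median 0.57).

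The gene for the cell cycle inhibitor p21, CDKN1A (chromosome 6, 36644237 to 36655114), had 33118, 32238, 33086 and 34338 normalized read counts in B87+DMKG+Rita, 5023, 4706, 5811 and 6428 in B87+DMKG, 27938, 30317, 30468 and 28088 in Rita, and 4173, 4669, 4472 and 4342 in Control libraries. Every library with Rita was above every library without it. Rita raised CDKN1A by 2.61 in B87+DMKG cells and by 2.73 in otherwise untreated cells, and the interaction of -0.12 ± 0.14 did not pass the test (adjusted p = 0.49), with a 95% interval of -0.40 to 0.16.

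MDM2 (chromosome 12, 69195239 to 69239324) had 8017, 7555, 8161 and 7154 in B87+DMKG+Rita, 4544, 4004, 4092 and 3683 in B87+DMKG, 11500, 9969, 11178 and 11750 in Rita, and 6691, 6062, 6538 and 6808 in Control libraries. The groups did not overlap, and B87+DMKG lowered MDM2 both in Rita-treated cells (-0.52) and in cells without Rita (-0.68). The interaction of MDM2 was 0.16 ± 0.12 and did not pass the test (adjusted p = 0.30, 95% interval -0.09 to 0.41).

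PMAIP1, which encodes NOXA, a BH3-only protein that neutralizes MCL1 and is a target of both p53 and ATF4, had 11769, 12638, 12607 and 12314 in B87+DMKG+Rita, 867, 691, 530 and 453 in B87+DMKG, 10614, 10725, 10620 and 11624 in Rita, and 1987, 1924, 1315 and 2290 in Control libraries. No groups overlapped, and all libraries with Rita were far above those without it. The interaction was 1.76 ± 0.22 (adjusted p = 1.1e-07), with B87+DMKG lowering PMAIP1 in cells without Rita (-1.58) and not passing the test in Rita-treated cells (0.18). BBC3, which encodes PUMA, another BH3-only protein, had 1316, 1395, 1484 and 1647 in B87+DMKG+Rita, 176, 224, 231 and 294 in B87+DMKG, 940, 993, 980 and 898 in Rita, and 281, 318, 239 and 293 in Control libraries. B87+DMKG and Control libraries overlapped, the B87+DMKG+Rita libraries were above all Rita libraries, and the interaction was 0.92 ± 0.26 (adjusted p = 0.0039).

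GDF15, a secreted stress hormone raised by p53 and by ATF4 with CHOP, had 25817, 27805, 28061 and 30248 in B87+DMKG+Rita, 1191, 1025, 1587 and 1761 in B87+DMKG, 19143, 21057, 19581 and 16285 in Rita, and 2105, 2649, 1451 and 2335 in Control libraries. Rita raised GDF15 by 4.36 in B87+DMKG cells and by 3.18 in otherwise untreated cells (interaction 1.18 ± 0.26, adjusted p = 0.00036). PLK2, a polo-like kinase that p53 induces, averaged 19142 ± 895 in B87+DMKG+Rita, 4052 ± 255 in B87+DMKG, 13332 ± 619 in Rita and 10164 ± 340 in Control libraries (SD, n = 4 each; interaction 1.85 ± 0.15). SPATA18, a factor of mitochondrial quality control, had an interaction of 1.87 ± 0.40 at levels of 82.9 to 102 in B87+DMKG+Rita, 10.7 to 38.3 in B87+DMKG, 72.6 to 95.1 in Rita and 60.1 to 103 in Control libraries. Only the B87+DMKG libraries were low, and Rita alone did not pass the test for SPATA18 (0.07).

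Among the 13 BCL2 family genes tested, 4 were positive and 1 negative (24.2% and 24.4% of all rows; median 0.26), a positive share not far from that of all rows. Besides PMAIP1 and BBC3, the positive members were BID (0.70 ± 0.11), which links death receptors to mitochondria, and BMF (2.16 ± 0.75), whose values were 21 to 29 in B87+DMKG+Rita, 0 to 17.8 in B87+DMKG, 12.1 to 25.2 in Rita and 8.54 to 23.4 in Control libraries. BMF did not pass with edgeR or without B87+DMKG replicate 2. Of the 20 death receptors, caspases and apoptosis inhibitors, 7 were positive and 5 negative (24.2% and 24.4% of all rows, median 0.16), again not far from all rows. TNFRSF10B, the TRAIL receptor DR5, which both p53 and CHOP induce, had 3709, 3344, 3566 and 3018 in B87+DMKG+Rita, 1050, 993, 1271 and 1371 in B87+DMKG, 4576, 4524, 4070 and 3216 in Rita, and 2971, 2977, 2922 and 3392 in Control libraries (interaction 1.14 ± 0.19, adjusted p = 1.3e-05). B87+DMKG libraries were the only group that stood below the others. The inhibitors of apoptosis BIRC2 (1.13 ± 0.23) and BIRC3 (1.17 ± 0.32) were positive. TNFRSF1A, the main receptor for tumour necrosis factor, went the other way, with 7656, 8121, 7302 and 8038 in B87+DMKG+Rita, 21079, 25277, 20535 and 17538 in B87+DMKG, 8751, 8629, 8902 and 11933 in Rita, and 11333, 11393, 11151 and 10105 in Control libraries (interaction -1.21 ± 0.15). Here the B87+DMKG libraries were the highest.

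**Figure D3:**
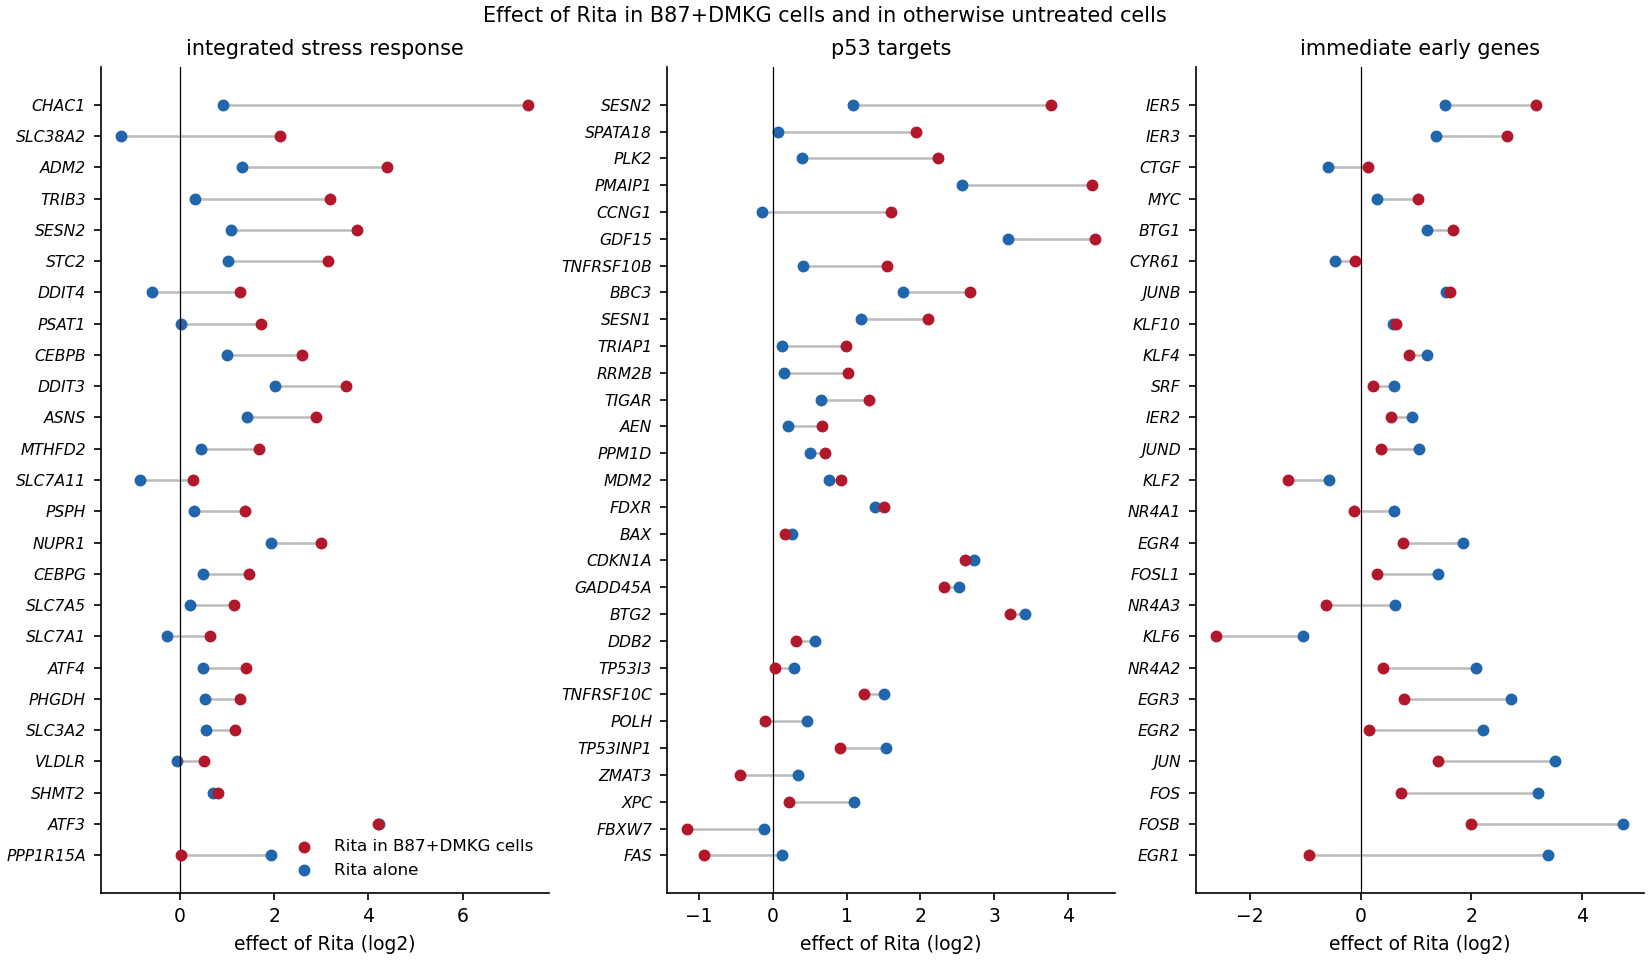
Log2 effect of Rita in B87+DMKG cells (red) and in otherwise untreated cells (blue) for the tested members of 3 lists, ordered by the interaction, which is the length of the grey line. Red lies right of blue for most genes of the integrated stress response (CHAC1 7.40 and 0.92), on either side for p53 targets (CDKN1A 2.61 and 2.73), and left of blue for EGR1 (-0.94 and 3.39) and for most immediate early genes past the test.

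Immediate early genes, which encode transcription factors switched on within minutes by growth factor and stress kinases, leaned to negative interactions. Of the 25 tested, 10 were negative (24.4% of all rows), 4 positive (24.2% of all rows) and 11 did not pass the test, with a median of -0.73. Rita alone raised 21 of them (25.8% of all rows), and B87+DMKG without Rita raised 21 (30.2% of all rows). Rita added to B87+DMKG raised 12 and lowered 4 (33.1% and 34.2% of all rows). B87+DMKG added to Rita raised 18 and lowered none (9.35% and 14.1% of all rows).

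EGR1, a zinc finger factor that is the best known of them (chromosome 5, 137801169 to 137805189), had 18212, 17392, 16777 and 17383 normalized read counts in B87+DMKG+Rita, 35769, 37022, 29010 and 32180 in B87+DMKG, 3226, 3517, 3480 and 5050 in Rita, and 441, 371, 214 and 470 in Control libraries. No 2 groups overlapped, and B87+DMKG+Rita lay between B87+DMKG and Rita. Rita lowered EGR1 in B87+DMKG cells (-0.94) and raised it in otherwise untreated cells (3.39), an interaction of -4.32 ± 0.28 (adjusted p = 6.9e-13).

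The EGR1 window is shown because EGR1 had the most negative interaction of this list and its promoter carries serum response elements, through which growth factor signals reach it. The run of letters in capitals, which contains a serum response element, was searched on both strands as written (GRCh38.p14, chr5:138465229-138465528, plus strand).
EGR1: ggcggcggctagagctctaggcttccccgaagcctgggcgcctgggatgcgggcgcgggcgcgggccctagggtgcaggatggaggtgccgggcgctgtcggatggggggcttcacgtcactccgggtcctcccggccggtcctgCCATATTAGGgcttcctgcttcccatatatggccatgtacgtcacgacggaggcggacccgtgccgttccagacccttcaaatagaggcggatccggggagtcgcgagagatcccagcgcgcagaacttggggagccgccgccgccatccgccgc
Of the 25 members, 17 had 21 windows, and 1 window, that of EGR1, held the letters. Only this exact spelling was searched, so other spellings of the element, in EGR1 or in the other members, were not counted. Elements more than 250 bases before a start lie outside the windows and were not counted either. The search therefore does not show that the other members lack the element. The spelling is one that EGR1 carries, so its match is a description and no test. Over all 35116 windows 12 held them (0.0342%).

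The AP-1 subunits FOS, FOSB and JUN differed from EGR1 in that Rita raised them in both settings. FOS had 6841, 6832, 6612 and 6783 in B87+DMKG+Rita, 3842, 3965, 4241 and 4429 in B87+DMKG, 2142, 2704, 2481 and 2055 in Rita, and 300, 247, 222 and 238 in Control libraries. The groups did not overlap, and the Rita effect on FOS was 0.72 in B87+DMKG cells and 3.21 in otherwise untreated cells (interaction -2.50 ± 0.29). JUN had 6955, 6022, 7094 and 7158 in B87+DMKG+Rita, 2551, 2240, 2648 and 2987 in B87+DMKG, 4047, 4453, 4033 and 3980 in Rita, and 278, 353, 437 and 385 in Control libraries (interaction -2.13 ± 0.16). For both genes the combination of all agents gave the highest level, although the interaction was negative. FOSB had an interaction of -2.75 ± 0.42. Among the 17 genes of feedback on the MAP kinase pathway, 7 were positive and 2 negative (24.2% and 24.4% of all rows, median 0.34). DUSP6, the phosphatase that switches off ERK, had 11916, 12475, 12295 and 10956 in B87+DMKG+Rita, 3379, 3325, 3306 and 2886 in B87+DMKG, 5570, 5564, 5478 and 5997 in Rita, and 5062, 4913, 4452 and 5315 in Control libraries. Its interaction was 1.69 ± 0.11, with the highest level where all agents were present. SPRED1 (1.29 ± 0.22) and ERRFI1 (1.21 ± 0.26), which dampen RAS and the epidermal growth factor receptor, were positive, and SPRED3 was negative (-2.38 ± 0.37).

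Metallothioneins, small cysteine-rich proteins that bind zinc and copper, had the most negative interactions. Of 7 genes of the list tested, 6 were negative and 1 positive (24.4% and 24.2% of all rows), with a median of -2.08. MT1G (chromosome 16, 56700648 to 56701977) had 15.8, 34, 19.8 and 29 normalized read counts in B87+DMKG+Rita, 615, 827, 735 and 571 in B87+DMKG, 31.4, 38.6, 39.3 and 41.9 in Rita, and 6.41, 8.53, 4.77 and 4.37 in Control libraries. The B87+DMKG libraries stood above all others, and the interaction was -7.29 ± 1.09 (adjusted p = 2.7e-06). MT1F had 33.3, 29.3, 32.4 and 31.1 in B87+DMKG+Rita, 343, 493, 392 and 333 in B87+DMKG, 24.4, 18.2, 35.4 and 55.5 in Rita, and 17.1, 40.5, 14.3 and 10.9 in Control libraries (interaction -4.29 ± 0.78). Outside B87+DMKG the MT1F groups overlapped. MT2A, the most widely expressed member in human tissues, had 5541, 5445, 5113 and 5275 in B87+DMKG+Rita, 14625, 14006, 16958 and 14737 in B87+DMKG, 4795, 4968, 4891 and 7522 in Rita, and 3520, 4346, 3387 and 3334 in Control libraries. In MT2A the B87+DMKG+Rita and Rita libraries overlapped, B87+DMKG libraries were again the highest, and the interaction was -2.08 ± 0.32. The MT1 genes are close copies of each other, so reads may be split between them in a way that the sources used here do not describe. The positive member, named after its value was seen, was SLC30A1, a zinc exporter (0.89 ± 0.19).

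The MT2A window is printed as an example of the metal response elements, read by the zinc sensor MTF1, of a gene that moved with the list. Their core was searched as TGCNCNC on both strands, overlapping matches counted apart, and matches are in capitals (GRCh38.p14, chr16:56608334-56608633, plus strand).
MT2A: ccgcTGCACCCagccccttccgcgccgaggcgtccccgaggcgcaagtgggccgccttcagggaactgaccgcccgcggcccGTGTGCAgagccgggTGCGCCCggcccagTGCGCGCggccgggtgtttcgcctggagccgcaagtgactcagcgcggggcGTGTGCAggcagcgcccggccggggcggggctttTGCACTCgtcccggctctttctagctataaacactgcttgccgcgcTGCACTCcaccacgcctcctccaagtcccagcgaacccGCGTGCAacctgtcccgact
MT2A held 8 matches. Of the 7 members 3 had a window, 1 each. The other 2 were MT1X with 4 matches and SLC30A1, the member with a positive interaction, with 2. MT1G and MT1F had no window. At least 2 matches were found in 24.2% of all 35116 windows, and 4 or more in 2.94%.

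Heat shock genes pointed the same way at their top. Of 11 tested, 5 were negative and 1 positive (24.4% and 24.2% of all rows, median -0.22). HSPA1A, the inducible HSP70 chaperone, had 1551, 1663, 1440 and 1838 in B87+DMKG+Rita, 16597, 17826, 17507 and 20372 in B87+DMKG, 6502, 6271, 7678 and 9136 in Rita, and 8211, 6697, 14185 and 6056 in Control libraries. Rita and Control libraries overlapped, and the B87+DMKG+Rita libraries were the lowest of the 4 groups. B87+DMKG+Nutlin-3 libraries were lower still (1010 to 1369), against 9768 to 14442 in Nutlin-3 libraries. Rita lowered HSPA1A in B87+DMKG cells (-3.48), its effect in otherwise untreated cells did not pass the test (-0.18), and the interaction was -3.30 ± 0.31 (adjusted p = 1.3e-09). B87+DMKG itself moved HSPA1A in opposite directions, by -2.18 in Rita-treated cells and by 1.12 in cells without Rita. HSPA1B, a near-identical copy from which reads may be shared, had an interaction of -2.39 ± 0.32, and the co-chaperone DNAJB1 one of -0.97 ± 0.15. The mitochondrial chaperone HSPD1 was the positive member (0.95 ± 0.09).

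Several other large negative interactions were in RNAs that are not translated or that have near copies. MALAT1, a long non-coding RNA held in the nucleus (chromosome 11, 65265233 to 65273989), had 1832, 1159, 2688 and 1608 normalized read counts in B87+DMKG+Rita, 23333, 20771, 16395 and 15214 in B87+DMKG, 1706, 1705, 1857 and 2200 in Rita, and 1628, 857, 907 and 1161 in Control libraries. The B87+DMKG libraries were far above the rest, the B87+DMKG+Rita libraries overlapped with Rita and with Control, and the interaction was -4.17 ± 0.48 (adjusted p = 4.2e-08). NEAT1, its neighbour on the chromosome and another nuclear RNA, had an interaction of -0.20 ± 0.08 and did not pass in 7 of the 16 fits that leave out a library. GOLGA8A, of a family of golgin copies on chromosome 15, had 72.7, 30.2, 47.7 and 34.2 in B87+DMKG+Rita, 1057, 1289, 1103 and 1378 in B87+DMKG, 64.5, 104, 74.7 and 132 in Rita, and 105, 61.8, 75.2 and 56.9 in Control libraries (interaction -5.06 ± 0.63). Again the B87+DMKG libraries alone were high. RGPD1, of a family of RANBP2 copies, was at 0, 0, 0 and 9.33 in B87+DMKG+Rita, 183, 260, 126 and 151 in B87+DMKG, 31.4, 32.5, 0 and 18.8 in Rita, and 29.9, 0, 50.1 and 2.19 in Control libraries. Its fitted value of -7.13 ± 1.64 and that of GOLGA8R (-5.70 ± 1.72) rest on values at 0 and depend on the pseudocount. The antisense RNA ASMTL-AS1 had an interaction of -4.73 ± 1.01, with 26.4 to 68.4 in B87+DMKG+Rita, 657 to 1212 in B87+DMKG, 41 to 91.5 in Rita and 29.8 to 58.7 in Control libraries. Whether counting used the strand is not given in the sources used here, so its reads and those of overlapping genes may not be told apart.

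Protein-coding genes completed the lowest 12. LTB4R, a receptor for leukotriene B4, had 687, 379, 632 and 755 in B87+DMKG+Rita, 3888, 4078, 3780 and 3738 in B87+DMKG, 910, 1161, 1035 and 1147 in Rita, and 484, 444, 345 and 381 in Control libraries (interaction -4.07 ± 0.48). CLIP3, a microtubule-binding protein of the Golgi (-4.10 ± 0.55), KCNAB3, a subunit of potassium channels (-4.07 ± 0.72), and AKR7L, an aldo-keto reductase relative (-4.04 ± 0.59), were each highest in B87+DMKG libraries. In those 3 genes the B87+DMKG libraries lay between 139 and 218 and did not overlap with the other groups, which stayed at 60.7 or below.

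On the positive side, UBL3, a membrane-anchored ubiquitin-like protein (chromosome 13, 30338542 to 30424820), had 609, 798, 753 and 662 in B87+DMKG+Rita, 107, 133, 101 and 108 in B87+DMKG, 1031, 917, 956 and 967 in Rita, and 1399, 1201, 1432 and 1394 in Control libraries. The order B87+DMKG, B87+DMKG+Rita, Rita, Control held with no overlap, and the interaction was 3.13 ± 0.19 (adjusted p = 3.6e-13). KIF5B, a kinesin motor that carries cargo along microtubules, averaged 2107 ± 291 in B87+DMKG+Rita, 363 ± 134 in B87+DMKG, 2604 ± 223 in Rita and 2774 ± 320 in Control libraries (SD, n = 4 each; interaction 2.69 ± 0.33). TRIB1, a relative of TRIB3 that scaffolds a ubiquitin ligase, had 1255, 1294, 1388 and 1421 in B87+DMKG+Rita, 163, 120, 118 and 133 in B87+DMKG, 1208, 1188, 1226 and 1252 in Rita, and 798, 726, 746 and 866 in Control libraries (interaction 2.69 ± 0.15). In TRIB1 the libraries with Rita were above all others. IL1A, an alarm cytokine, had 1045, 958, 1016 and 860 in B87+DMKG+Rita, 66, 119, 76.6 and 66.6 in B87+DMKG, 798, 726, 722 and 744 in Rita, and 537, 553, 334 and 535 in Control libraries (interaction 2.95 ± 0.36). Its groups did not overlap. Among 17 genes of NF-kB signalling and inflammation, 7 were positive and 3 negative (24.2% and 24.4% of all rows; median 0.15). These counts were 4 and 5 after quantile normalization and 5 and 4 at the same total. IL1B, the other interleukin-1, was positive too (3.18 ± 0.55), and CXCL3, a chemokine with close copies, was negative (-0.83 ± 0.14). The remaining genes of the top 12 were low, with a B87+DMKG library at 0 or near it: LINC01433 (3.16 ± 0.96), BARX1 (2.94 ± 0.88), KRT83 (2.76 ± 0.70) and ST20-AS1 (2.69 ± 0.81). They had 50.8 to 102 in B87+DMKG+Rita and 0 to 52.5 in B87+DMKG libraries, and their fitted values depend on the pseudocount.

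Cullins are the scaffolds of the largest family of ubiquitin ligases. Of 8 tested, 5 were positive and 2 negative (24.2% and 24.4% of all rows, median 0.83). CUL3, whose ligase holds NRF2 low through KEAP1 (chromosome 2, 225334867 to 225450114), had 2718, 2702, 2614 and 2881 in B87+DMKG+Rita, 1033, 943, 979 and 717 in B87+DMKG, 5700, 5273, 5492 and 5721 in Rita, and 8726, 8397, 9439 and 9000 in Control libraries. No groups overlapped, Rita raised CUL3 in B87+DMKG cells (1.58) and lowered it in otherwise untreated cells (-0.68), and the interaction was 2.26 ± 0.15 (adjusted p = 1e-12). B87+DMKG lowered CUL3 in Rita-treated cells (-1.02) as well as in cells without Rita (-3.29). CUL5 (2.52 ± 0.27) and CUL1 (1.54 ± 0.09) shared these directions of the Rita effects, and CUL9, which binds p53, was negative (-1.34 ± 0.19). Of 19 targets of NRF2, 12 were positive and 2 negative (24.2% and 24.4% of all rows; median 0.41). GCLM, a subunit of the enzyme that starts glutathione synthesis, had 1.13 ± 0.13, SLC7A11, the cystine importer, 1.13 ± 0.27, and AKR1C2, a reductase with close copies, 1.04 ± 0.14.

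Genes of the hypoxia response and of glucose use followed. Of 23 genes of the hypoxia response, 14 were positive and 2 negative (24.2% and 24.4% of all rows; median 0.69). ANKRD37 (1.93 ± 0.33) and EGLN1, the oxygen sensor that marks HIF for destruction (1.5 ± 0.18), were the highest, and ANGPTL4, a secreted inhibitor of lipoprotein lipase, had 1872, 1816, 2003 and 2029 in B87+DMKG+Rita, 792, 795, 985 and 1098 in B87+DMKG, 655, 645, 671 and 596 in Rita, and 769, 830, 758 and 801 in Control libraries. Its B87+DMKG+Rita libraries were the highest of the 4 groups (interaction 1.38 ± 0.18), and its level was also high in B87+DMKG+Nutlin-3 libraries (1458 to 1977), against 447 to 828 in Nutlin-3 libraries. Of 21 glycolysis genes 14 were positive and none negative (24.2% and 24.4% of all rows, median 0.37). ALDOC, an aldolase, had an interaction of 1.12 ± 0.16, and the glucose transporters SLC2A3 and SLC2A1 had 1.08 ± 0.14 and 1.05 ± 0.14. SLC2A1 had 10403, 10811, 10479 and 10531 in B87+DMKG+Rita, 8694, 8494, 11030 and 12467 in B87+DMKG, 9196, 9420, 8766 and 7094 in Rita, and 16678, 17133, 16937 and 16917 in Control libraries. All treated libraries were below the Control libraries, and B87+DMKG overlapped with both B87+DMKG+Rita and Rita. HK2, the first enzyme of glycolysis in many tumours, had 0.33 ± 0.13 (adjusted p = 0.035) and did not pass in 7 of the 16 fits that leave out a library. TXNIP, an inhibitor of thioredoxin and of glucose uptake, had 513, 446, 470 and 423 in B87+DMKG+Rita, 625, 951, 702 and 587 in B87+DMKG, 1671, 1762, 1793 and 2223 in Rita, and 1110, 972, 562 and 959 in Control libraries. B87+DMKG lowered TXNIP in Rita-treated cells (-2.0), its effect in cells without Rita did not pass the test (-0.31), and TXNIP had an interaction of -1.69 ± 0.23. MLXIPL, which encodes the glucose sensor ChREBP that turns TXNIP on, had -3.59 ± 0.31 and its relative MLXIP -1.91 ± 0.24. MLXIPL had 185 to 265 in B87+DMKG+Rita, 541 to 832 in B87+DMKG, 141 to 251 in Rita and 32 to 56.1 in Control libraries. The libraries of all 3 treated groups were above those of Control.

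Genes of the tricarboxylic acid cycle and of complex I lie in the pathways of DMKG and B87. Of 25 genes of the tricarboxylic acid cycle and glutamine use 16 were positive and 2 negative (24.2% and 24.4% of all rows; median 0.42). SUCLG1, a subunit of succinyl-CoA ligase, had 1.06 ± 0.14, MDH1, a malate dehydrogenase, 1.05 ± 0.12, and SUCLA2, another ligase subunit, 1.04 ± 0.12. Of 32 nuclear genes of complex I 13 were positive and 2 negative (24.2% and 24.4% of all rows; median 0.26), and 17 did not pass the test. The highest value was that of NDUFA2 (1.16 ± 0.17), with 2351, 2475, 2569 and 2490 in B87+DMKG+Rita, 931, 813, 1130 and 1079 in B87+DMKG, 1949, 2482, 2513 and 1607 in Rita, and 1820, 2032, 1827 and 1787 in Control libraries. The B87+DMKG libraries of NDUFA2 were below all others.

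**Figure D4:**
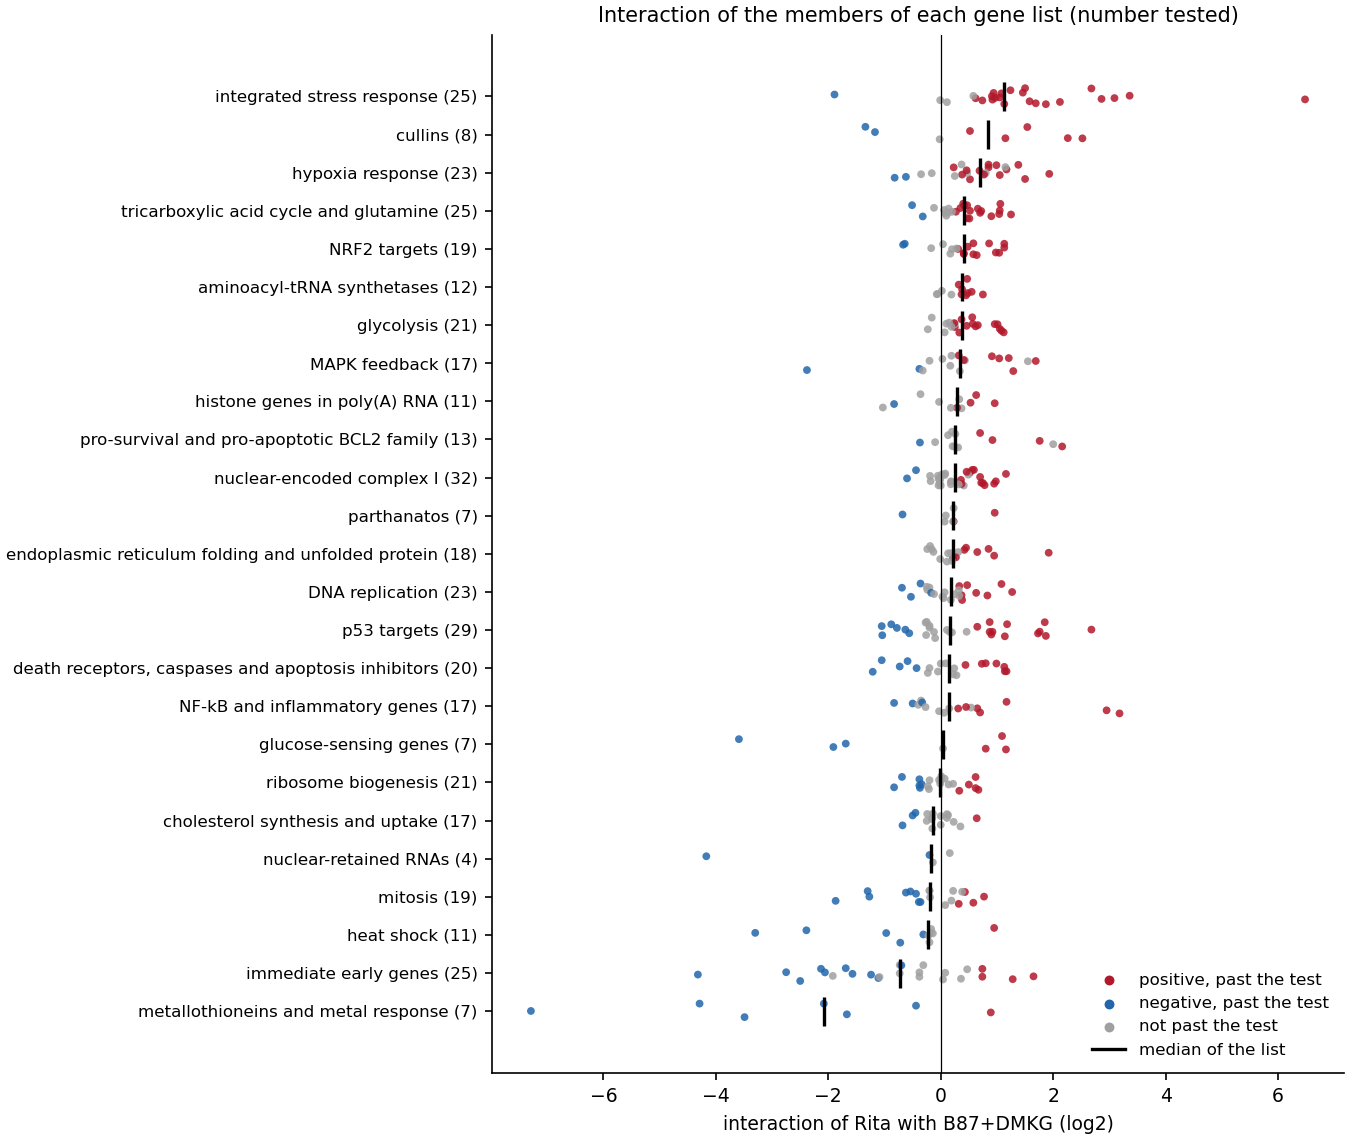
Interaction of every tested member of 25 gene lists on the log2 scale, 1 point a gene, with red and blue for members past the test and a line at the median of each list; lists are ordered by that median. The integrated stress response lies highest (median 1.13) and the metallothioneins lowest (-2.08), and most other lists straddle 0.

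Cell cycle genes gave no single direction. Of 19 mitosis genes 8 were negative and 4 positive (24.4% and 24.2% of all rows; median -0.20). MKI67, the proliferation marker, had 22126, 18175, 20889 and 17999 in B87+DMKG+Rita, 64269, 69372, 49692 and 49092 in B87+DMKG, 29412, 24838, 27209 and 41973 in Rita, and 29741, 20944, 22513 and 24037 in Control libraries. The B87+DMKG libraries were the highest, and the interaction was -1.87 ± 0.19 (adjusted p = 6e-09). The centromere motor CENPE (-1.30 ± 0.29) and CENPF (-1.27 ± 0.14) were also negative, whereas the kinase CDK1 was positive (0.77 ± 0.11). Of 23 DNA replication genes 8 were positive and 4 negative (24.2% and 24.4% of all rows; median 0.18), among them RFC3 (1.27 ± 0.15) and PRIM1 (1.08 ± 0.17), which load the sliding clamp and prime synthesis, CCNE1 (0.83 ± 0.12), which starts S phase, and GINS2 (-0.69 ± 0.13), of the replicative helicase. Of 7 genes of parthanatos, the death that follows overactive PARP1, 2 were positive and 1 negative (24.2% and 24.4% of all rows), not far from all rows. PARP1 itself had 0.23 ± 0.08 (adjusted p = 0.014), which did not pass under quantile normalization or the same total. PARP2 had -0.68 ± 0.13, and ADPRHL2, which removes ADP-ribose, 0.96 ± 0.23. PPP1R10, a subunit that targets protein phosphatase to the nucleus, had 2886, 2518, 2532 and 2565 in B87+DMKG+Rita, 6680, 8146, 6282 and 5757 in B87+DMKG, 3634, 3393, 3584 and 5021 in Rita, and 3992, 3554, 4334 and 3700 in Control libraries (-1.34 ± 0.18). Again B87+DMKG libraries alone were high.

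Of 18 genes of protein folding in the endoplasmic reticulum 8 were positive and none negative (24.2% and 24.4% of all rows; median 0.21). They were led by XBP1, a master factor of the unfolded protein response. XBP1 had 24037, 25596, 25608 and 26311 in B87+DMKG+Rita, 3194, 2761, 3246 and 3315 in B87+DMKG, 17608, 16849, 18876 and 17390 in Rita, and 8651, 9724, 5847 and 9256 in Control libraries, with no overlap and an interaction of 1.92 ± 0.17. HERPUD1, which helps clear misfolded proteins, had 0.65 ± 0.17. By comparison with 24.4% negative and 24.2% positive over all rows, of 17 cholesterol genes 3 were negative and 1 positive (median -0.14), and of 21 ribosome biogenesis genes 6 were negative and 5 positive (median -0.01). Of 11 histone genes read in poly(A) RNA 4 were positive and 1 negative (median 0.29), and without Rita replicate 4 and Control replicate 3 these were 2 and 1. The glucose-sensing list had 3 of 7 in each direction.

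The epithelial markers of the labelled carcinoma line were present in part. The keratins KRT8 and KRT18 averaged 126599 and 99019 normalized read counts in B87+DMKG+Rita libraries and 97329 and 67024 in Control libraries. The 5 epithelial markers summed to 345486 to 393491 in B87+DMKG+Rita, 205459 to 313419 in B87+DMKG, 260385 to 287597 in Rita and 245626 to 279907 in Control libraries. Of the 4 tested, 3 had a positive interaction, against 24.2% of all rows. EPCAM was low, at 59.4 to 85 in B87+DMKG+Rita, 30.3 to 45.3 in B87+DMKG, 28 to 64.5 in Rita and 28.8 to 63.4 in Control libraries. It was among the 3 with a positive interaction, but did not pass at the same total, with array weights or in several fits that leave out a library. CDH1 was below the minimum mean of 10. The 7 fibroblast markers summed to 1809 to 1926 in B87+DMKG+Rita, 1417 to 1595 in B87+DMKG, 1488 to 1693 in Rita and 1324 to 1456 in Control libraries. The leukocyte markers summed to 181 to 299 in B87+DMKG+Rita, 81.7 to 132 in B87+DMKG, 185 to 256 in Rita and 212 to 266 in Control libraries, and CD14 was the 1 member tested, with an interaction of 1.69. The endothelial markers summed to 5.66 to 21 in B87+DMKG+Rita, 37.3 to 66 in B87+DMKG, 10.5 to 14 in Rita and 10.7 to 23.5 in Control libraries. Of these, 0 of 1 tested passed, against 48.6% of all rows. The part of these shifts in the results was not tested. CD3E was at 0 in all B87+DMKG, Rita and Control libraries and CLDN5 in all 16.

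Rows that are not protein-coding leaned to negative interactions. Of 2416 rows without a gene symbol 37.9% were negative and 7.57% positive, with a median of -0.72, against 24.4% and 24.2% of all rows. Of 584 long non-coding RNA genes 27.1% were negative and 6.85% positive, and of 264 transcribed pseudogenes 38.6% and 6.44%. The 84 small nucleolar RNA genes, most of which lie within introns of other genes, had 66.7% negative and 1.19% positive calls and a median of -1.57. Protein-coding genes had 20.6% negative and 29.0% positive calls (n = 11914). In the rows without a symbol the median effect of B87+DMKG was -0.16 in Rita-treated cells and 0.57 in cells without Rita. Rows without a symbol held 0.753% to 0.792% of reads in B87+DMKG+Rita, 1.06% to 1.09% in B87+DMKG, 0.82% to 0.85% in Rita and 0.84% to 0.864% in Control libraries. These rows share libraries and, in part, the transcripts they lie in, so their shares are descriptions.

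**Figure D5:**
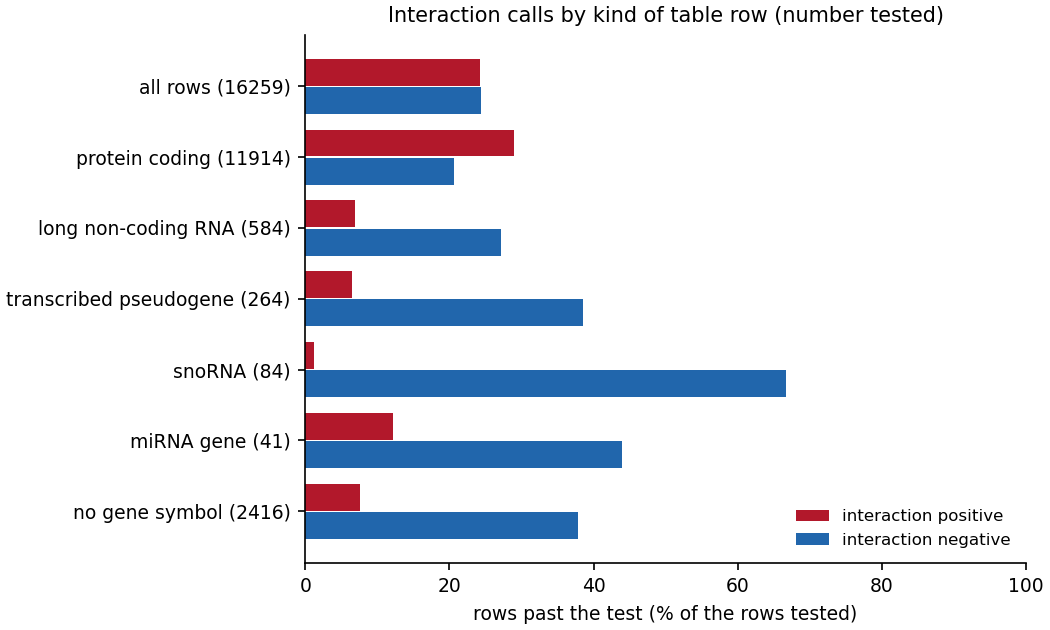
Share of tested rows with a positive (red) or negative (blue) interaction past the test, by kind of table row, with the number of rows in brackets and gene types from RefSeq. Small nucleolar RNAs have 66.7% negative calls and protein-coding genes 20.6%.

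The length of a gene went with the Rita effect and little with the interaction. In protein-coding genes that span up to 5 kb the median Rita effect was 0.38 in B87+DMKG cells and 0.36 in otherwise untreated cells. In those over 250 kb it was -0.64 in B87+DMKG cells and -0.85 in otherwise untreated cells. The median interaction was 0.07 in the shortest and 0.21 in the longest of these bins.

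Nutlin-3 at 30 µM, which fills the p53 pocket of MDM2, offers a second MDM2 inhibitor in the same design, at a dose other than that of Rita and with 3 libraries alone and 4 with B87+DMKG. The 2 interactions share the B87+DMKG and Control libraries, which cancel in their difference. The Rita interaction minus the Nutlin-3 interaction passed the test in 5949 rows (36.6%), with 3165 positive (19.5%) and 2784 negative (17.1%). For p53 targets 22 of 29 were positive and 1 negative (median 1.01). MDM2 had 14808, 15651, 12768 and 14618 in B87+DMKG+Nutlin-3 and 61919, 76151 and 79678 in Nutlin-3 libraries, so its interaction was 0.16 for Rita and -1.64 for Nutlin-3 (difference 1.80 ± 0.13, adjusted p = 1.1e-12). The interaction of CDKN1A was -0.12 for Rita and -1.17 for Nutlin-3 (difference 1.05 ± 0.14). For the integrated stress response 14 of 25 were positive and 3 negative (median 0.71). CHAC1 had an interaction of 6.48 for Rita and 5.06 for Nutlin-3, with 2813 to 3330 in B87+DMKG+Nutlin-3 and 5399 to 6468 in Nutlin-3 libraries (difference 1.42 ± 0.52, adjusted p = 0.032).

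The interactions of some genes differed between the 2 agents, with opposite signs in CUL3, HBS1L and JUN. A difference alone does not show opposite signs, and the Nutlin-3 interaction was not tested by itself. CUL3 had 155, 151, 127 and 129 in B87+DMKG+Nutlin-3 and 6811, 7158 and 8087 in Nutlin-3 libraries, giving an interaction of 2.26 for Rita and -2.41 for Nutlin-3 (difference 4.67 ± 0.15, adjusted p = 3.1e-20). HBS1L, a factor that rescues stalled ribosomes, had 2051 to 2242 in B87+DMKG+Rita libraries and 169 to 217 in B87+DMKG+Nutlin-3 libraries, with interactions of 1.94 for Rita and -1.86 for Nutlin-3. JUN had 4594, 4685, 4960 and 4637 in B87+DMKG+Nutlin-3 and 300, 246 and 214 in Nutlin-3 libraries, with an interaction of -2.13 for Rita and 1.38 for Nutlin-3 (difference -3.51 ± 0.16, adjusted p = 9.1e-17). Rita alone raised JUN, whereas Nutlin-3 libraries overlapped with Control. TP73, a relative of p53, had the lowest difference (-3.76 ± 0.71, adjusted p = 8.5e-05), at low levels of 26.1 to 35.2 in B87+DMKG+Rita, 73.7 to 115 in B87+DMKG+Nutlin-3, 10.5 to 35.6 in Rita and 0 to 11.3 in Nutlin-3 libraries. TIPARP, which adds ADP-ribose to proteins, had -0.19 for Rita and 2.66 for Nutlin-3, and C1orf116 had -1.55 for Rita and 2.07 for Nutlin-3. The Rita interaction of C1orf116 did not pass the test, but it passed with edgeR, with DESeq2, with only the 4 groups in the fit and without Control replicate 4. ST20-AS1 (difference 4.71), HIC1, a p53-induced repressor (3.79), and OTUD6B-AS1 (4.26) had positive differences, and SPDYE8P (-2.77) a negative one. The interaction of HIC1 with Rita did not pass the test (-0.45 ± 0.98) and changed sign under quantile normalization and without B87+DMKG replicate 2.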

How the data were processed

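RNA-seq values were deposited as 1 table of 74834 rows and 31 libraries, a signal that the authors made by dividing read counts by DESeq2 size factors, per the labels. STAR 2.4.0 is named in the submitters' processing notes, with the build mm10, whereas the file header names hg19, which is used for gene coordinates. All 31 columns were matched to samples by name. From the deposited values, log2(value + 1) was fitted by group over all 31 libraries with limma 3.58.1 (trend; 23 residual and 7.14 prior degrees of freedom), in 16259 rows with a mean of at least 10, and p-values were adjusted by Benjamini-Hochberg in each of 6 comparisons. In every library 100% of values were whole multiples of 1 read (within 0.1 of a step), so edgeR 4.0.16 and DESeq2 1.42.0 were run on recovered reads as alternatives; edgeR's quasi-likelihood test called 7974 interactions. On data simulated for the interaction, limma recovered 94.0% of 2-fold and 49.3% of 1.5-fold changes, with 5 false calls among 15554 rows. The simulation started from the Control means in every group, gave all rows of a group the same spread and changed few rows. It sets no error rate for the calls in the real data. Genes were named as the 12 highest and 12 lowest interactions called with every library left out in turn (mean of at least 50), up to 4 called members of each list, 18 fixed genes, and the 5 highest and 5 lowest differences from Nutlin-3. Members and lists were chosen with earlier results of these data known. Promoters are from RefSeq (GRCh38.p14).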

Additional observations from a re-analysis of the deposited data

Results flagged for a closer look

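The Rita effect differed between B87+DMKG cells and otherwise untreated cells in 7897 rows by limma's test of the difference itself, and the Rita and Nutlin-3 interactions differed in 5949 rows. Single libraries stood apart from the other 3 of their group in 37 of 528 sets of gene and group among the named genes (7.01%), where chance gives about 5%. Of these, 15 were in Rita replicate 4 and 7 in Control replicate 3. A split of a group into pairs of libraries, as for CENPE in B87+DMKG, is not marked by this rule.

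Rita replicate 4 was low in BOP1 (7055 normalized read counts), CDK1 (7160), H3F3B (31807) and HSPD1 (94622). It was high in DNAJB1 (6125), EGLN1 (1065), EGR1 (5050), GINS2 (1952), GNL3 (12438), HERPUD1 (8090), MLXIP (1786), MT2A (7522), PMAIP1 (11624), PPP1R10 (5021) and TNFRSF1A (11933). Control replicate 3 was low in ADM2 (249), CHAC1 (710), GARS (22007), HERPUD1 (2517), IL1A (334) and MARS (13466), and high in HSPA1B (12003). Without these 2 libraries the interaction of the integrated stress response list had a median of 1.27, against 1.13 with them.

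The other libraries had 1 to 3 each. B87+DMKG+Rita replicate 4 was high in CLIP3 (27.0) and RGPD1 (9.33) and low in RFC3 (1458). B87+DMKG+Rita replicate 1 was low in KDM4B (401) and high in PPP1R10 (2886), and replicate 3 was high in HIST1H1C (909). B87+DMKG replicate 4 was low in DUSP6 (2886) and high in FOSB (766). Rita replicate 2 was high in JUN (4453). Control replicate 1 was low in SDF2L1 (2750) and SLC16A3 (13296), Control replicate 2 was high in NDUFA2 (2032) and POLR1B (4158) and low in UBL3 (1201), and Control replicate 4 was high in TNFRSF10B (3392).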

How the results depend on the processing

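The interaction passed the test in 7848 and 8064 rows with pseudocounts of 0.5 and 5, in 8099 without the filter, in 6981 with a mean of at least 50, in 7977 after quantile normalization, in 7737 at the same total, in 8235 with array weights, in 7974 with edgeR and in 8231 with DESeq2. Leaving out 1 library gave 7218 to 7998, and 6476 of the 7897 calls (82.0%) remained with each of the 16 libraries left out. The same fits gave 10400 to 10908 rows for Rita in B87+DMKG cells, 7713 to 8135 for Rita in otherwise untreated cells, 2827 to 3436 for B87+DMKG in Rita-treated cells, 9240 to 9662 for B87+DMKG in cells without Rita, and 4938 to 6632 for Rita minus Nutlin-3. Requiring an absolute log2 value of at least 1 left 3124 rows for the interaction, 4286 for Rita in B87+DMKG cells, 2272 for Rita in otherwise untreated cells, 312 for B87+DMKG in Rita-treated cells, 3391 for B87+DMKG in cells without Rita and 2153 for Rita minus Nutlin-3. Array weights gave 5963 rows for B87+DMKG in Rita-treated cells, against 3812 without them. For B87+DMKG in cells without Rita they gave 9275 rows, against 9922. The weights were 1.88 for B87+DMKG+Rita, 1.19 for Rita, 1.54 for Control and 0.508 for B87+DMKG libraries, and the cause of the shift was not tested.

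Leaving out Rita replicate 4 and Control replicate 3 together, which was chosen after seeing the data, left 6762 interactions, from 14 libraries in place of 16. Of 132 named genes 6 then no longer passed, ARRDC4, BOP1, HIST1H1C, HK2, LUM and NEAT1. HIC1, which did not pass the test, had 0.249 after quantile normalization, and between -0.977 and 0.121 with 1 library left out, with its sign turned without B87+DMKG replicate 2. Same-numbered libraries did not deviate together (r of -0.201 to 0.119 over 24 pairs, against -0.127 to 0.179 over 72 pairs with other numbers). The labels do not say what the numbers mean, and a shared effect limited to few genes would not show in these correlations. With the replicate block 7733 interactions passed, and no named gene changed its call.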
